A study of Mus musculus with 12 samples.

Results

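Dendritic cells carry antigen to T cells and sense microbial nucleic acids, and bone marrow holds both mature dendritic cells and the progenitors they come from. Plasmacytoid dendritic cells release large amounts of type I interferon when their endosomal Toll-like receptors meet viral RNA or DNA, and their identity depends on the E protein TCF4. Conventional dendritic cells specialise in antigen presentation, and one branch of them, called cDC1 here, needs BATF3 and IRF8 and senses material from dead cells through CLEC9A. Here 9 genes of these cells, of the 21853 genes in the table, were followed through irradiation and treatment. They were taken by name as markers or regulators, 4 of plasmacytoid dendritic cells (Siglech, Ccr9, Tcf4 and Runx2) and 5 of conventional dendritic cells (Zbtb46, Batf3, Clec9a, Xcr1 and Itgax).

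Whole bone marrow of B6 mice was sequenced as RNA, with 3 libraries in each of 4 groups, and no sorting of dendritic cells is described. Control mice were not irradiated. TBI mice received 5 Gy of total body gamma irradiation at 0.66 Gy/min and then olive oil by gavage, 100 µL, as the vehicle. TBI+DEIX mice received the same irradiation and DEIX at 25 mg/kg by mouth once a day for 14 days, and DEIX mice received that dose without irradiation. The series title names deinoxanthin, a carotenoid pigment of Deinococcus bacteria. Marrow was collected 14 days after irradiation. No vehicle or gavage is stated for the control mice, so dosing itself and irradiation or DEIX cannot be told apart in a comparison with control. The labels do not say whether each library is a separate animal, so the p-values measure the spread between these libraries.

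The values are FPKM, fragments scaled by transcript length and library size, so levels can be compared between genes. Library sums lay between 493683 and 848843 FPKM, and 10359 to 10832 genes per library reached 1 FPKM. The read depth is unknown, but the FPKM that 1 read was worth in low genes, relative to control replicate 1, was 1.51 to 2.35 in TBI+DEIX and 0.879 to 1.65 in the other groups, so TBI+DEIX was on the whole the shallowest group. TBI+DEIX also varied most between its libraries, with a root mean square SD of log2(FPKM + 1) of 0.418 against 0.140 in control, 0.225 in TBI and 0.236 in DEIX. TBI+DEIX replicate 1 stood furthest apart and had the lowest estimated weight of the 12 libraries, so for the 9 genes and the other genes named below, called changes that use it are also given without it, the latter as checks added after the data were seen. The limma tests on log2(FPKM + 1) took the 10994 genes that reached 1 FPKM in 3 or more of the 12 libraries, and "called" means an adjusted p (Benjamini-Hochberg over those genes) under 0.05. Of the 9 genes, 8 were tested, and Xcr1 was not, because it reached 1 FPKM in 1 library only.

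The promoters of 3 plasmacytoid genes and of Xcr1 are shown because TCF4 and related E proteins bind E-boxes, and because Xcr1, a neighbour of Ccr9, had a different course from it. The table of RefSeq promoters used here, on GRCm38.p6, was matched by symbol for 8 of the 9 genes, all but Tcf4, and gives 300 bases from 250 before to 50 after the start of the gene in RefSeq. That start lies 88.8 kb inside the GENCODE gene for Ccr9 and 35.0 kb inside it for Zbtb46, so their windows do not stand at the gene starts given below, and it lies within 567 bases of the GENCODE start for the other 6. Capitals mark E-boxes, searched as CANNTG on both strands, a motif that reads as itself on the other strand. The windows are chr7:55767934-55768233 on the plus strand for Siglech, chr9:123766961-123767260 on the plus strand for Ccr9, chr17:44814578-44814877 on the minus strand for Runx2 and chr9:123861980-123862279 on the minus strand for Xcr1.
Siglech: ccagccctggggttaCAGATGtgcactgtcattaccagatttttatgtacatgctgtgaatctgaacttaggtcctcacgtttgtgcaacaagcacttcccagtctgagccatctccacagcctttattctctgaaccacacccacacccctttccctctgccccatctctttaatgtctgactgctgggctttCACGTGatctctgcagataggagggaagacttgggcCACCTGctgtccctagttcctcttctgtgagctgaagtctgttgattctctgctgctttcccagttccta
Ccr9: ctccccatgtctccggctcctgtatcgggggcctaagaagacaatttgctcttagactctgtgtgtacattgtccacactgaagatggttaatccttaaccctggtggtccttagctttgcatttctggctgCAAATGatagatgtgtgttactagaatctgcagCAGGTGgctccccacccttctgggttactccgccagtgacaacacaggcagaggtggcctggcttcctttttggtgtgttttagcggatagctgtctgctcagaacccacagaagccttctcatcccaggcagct
Runx2: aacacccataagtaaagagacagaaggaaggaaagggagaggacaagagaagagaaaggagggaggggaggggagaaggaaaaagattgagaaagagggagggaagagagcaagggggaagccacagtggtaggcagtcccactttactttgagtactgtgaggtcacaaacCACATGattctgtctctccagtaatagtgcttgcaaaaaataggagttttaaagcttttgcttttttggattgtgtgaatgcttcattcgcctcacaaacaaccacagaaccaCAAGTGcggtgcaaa
Xcr1: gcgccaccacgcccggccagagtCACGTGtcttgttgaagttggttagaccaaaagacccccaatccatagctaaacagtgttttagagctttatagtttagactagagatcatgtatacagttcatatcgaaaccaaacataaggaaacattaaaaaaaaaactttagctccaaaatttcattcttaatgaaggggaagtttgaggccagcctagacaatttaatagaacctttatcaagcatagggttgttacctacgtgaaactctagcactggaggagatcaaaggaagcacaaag
The windows held 3 E-boxes in Siglech, 2 in Ccr9, 2 in Runx2 and 1 in Xcr1. Those of Zbtb46, Batf3, Clec9a and Itgax held 6, 2, 1 and 2. An E-box of these letters stood in 72.3% of the 32851 RefSeq promoter windows of the same length, with a median of 1, so its presence alone marks none of these genes. A RUNX motif, TGTGGT on either strand, was found 3 times in Runx2, once in Siglech and once in Itgax, and in 16.8% of all windows. An AP-1 motif, TGANTCA on either strand, of the kind bound by BATF factors, was found once in Zbtb46 and once in Itgax, and in 7.81% of all windows. In Runx2, 2 of the 3 RUNX matches share letters with an E-box. A match describes letters and no binding.

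The plasmacytoid genes were highest in control marrow, lower in DEIX and in TBI marrow, and lowest when irradiation and DEIX were combined. Siglech, Ccr9 and Tcf4 fell after irradiation, Siglech and Tcf4 were lower again in TBI+DEIX than in TBI, and all 4 genes were lower in TBI+DEIX than in control. The conventional genes moved less together: Clec9a alone of the 4 tested was called, in TBI+DEIX against control. In whole marrow, fewer cells of a type and less RNA per cell cannot be told apart.

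**Figure D1:**
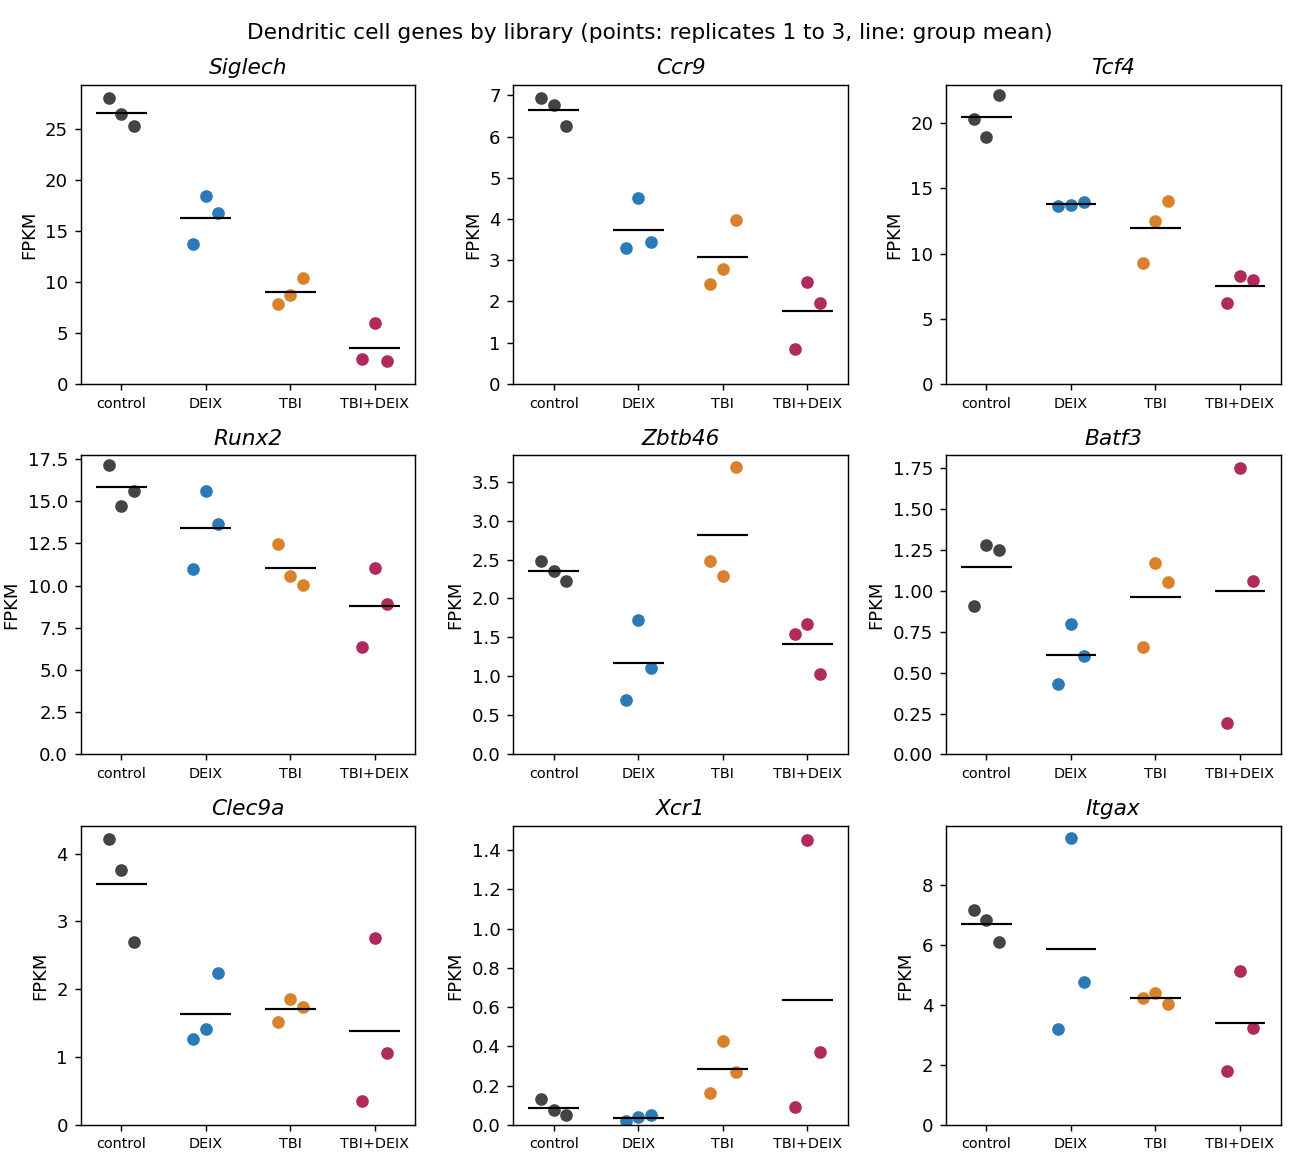
FPKM of each of the 9 dendritic cell genes (y axis, its own scale for each gene) in the 12 libraries, as points by group, with the group mean as a bar. Siglech runs from 26.6 in control to 3.54 in TBI+DEIX with no overlap between any of the 4 groups, while the highest Xcr1 value, 1.45, is a single TBI+DEIX library.

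Siglech encodes a sialic acid-binding lectin of the plasmacytoid cell surface and lies on chromosome 7 (55768178-55778925, plus strand, GRCm38). It measured 28.1, 26.5 and 25.3 FPKM in control, 7.81, 8.69 and 10.4 in TBI, 2.43, 5.94 and 2.26 in TBI+DEIX, and 13.8, 18.4 and 16.8 in DEIX. No 2 groups overlapped, and the order was control, DEIX, TBI and TBI+DEIX. The TBI mean of 8.98 ± 1.33 (SD, n = 3) was 33.7% of the control mean of 26.6 ± 1.37 (SD, n = 3). The TBI+DEIX mean of 3.54 ± 2.08 (SD, n = 3) was 39.4% of the TBI mean and 13.3% of the control mean.

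Ccr9 encodes the receptor for the chemokine CCL25, which guides cells to the thymus and small intestine, and lies on chromosome 9 (123678439-123784330, plus strand). It measured 6.95, 6.77 and 6.25 FPKM in control, 2.42, 2.80 and 3.98 in TBI, 0.843, 2.48 and 1.97 in TBI+DEIX, and 3.29, 4.50 and 3.43 in DEIX. Control stood above every other library, whereas TBI overlapped both DEIX and TBI+DEIX. The gene overlaps Slc6a20a and Lztfl1 on the opposite strand, and whether counting used strand is not given in the sources used here, so its level is uncertain to that extent. Gm17200, a lincRNA, and Gm17020, a pseudogene, overlap it on the same strand. Slc6a20a measured 4.01, 3.30 and 3.77 FPKM in control, 6.20, 1.58 and 4.46 in TBI, 0.204, 1.15 and 0.397 in TBI+DEIX, and 1.81, 4.79 and 1.70 in DEIX. Lztfl1 measured 3.74, 3.29 and 2.92 in control and 5.76, 2.43 and 2.68 in TBI+DEIX.

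Tcf4 encodes the E protein that sets the plasmacytoid programme, and it is also transcribed in B cells and in many other tissues. It lies on chromosome 18 (69343356-69689079, plus strand). Its values were 20.4, 19.0 and 22.2 FPKM in control, 9.25, 12.5 and 14.0 in TBI, 6.22, 8.30 and 7.95 in TBI+DEIX, and 13.7, 13.7 and 14.0 in DEIX. Control was above and TBI+DEIX below all other libraries, and the DEIX libraries, with an SD of 0.176, fell within the range of TBI. Runx2, a RUNX factor known both for bone formation and for the exit of plasmacytoid cells from marrow, lies on chromosome 17 (44495987-44814797, minus strand). It measured 17.2, 14.7 and 15.6 FPKM in control, 12.5, 10.6 and 10.05 in TBI, 6.38, 11.1 and 8.92 in TBI+DEIX, and 11.0, 15.6 and 13.6 in DEIX. Both irradiated groups lay below control but overlapped each other, and DEIX overlapped control. Supt3 and 3 antisense genes overlap Runx2 on the opposite strand, with the same limit as for Ccr9.

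After irradiation alone, Siglech fell by 1.48 on the log2(FPKM + 1) scale (SE 0.24, limma adjusted p = 0.00725). Ccr9 fell by 0.93 (SE 0.22, adjusted p = 0.0397) and Tcf4 by 0.75 (SE 0.14, adjusted p = 0.0166), while Runx2 had a change of -0.49 (SE 0.18, adjusted p = 0.170). Of the 8 tested genes 3 were thus called, each lower, and 3.10% of all tested genes were called lower (3.99% in either direction). The TBI libraries lay below every control library for 6 of the 8, against 16.3% of all tested genes. Siglech kept its call in each of the 12 other fits that were run. Ccr9 lost it with a pseudocount of 0.1 (adjusted p = 0.0933), with no filter on low genes (0.0604), without control replicate 1, 2 or 3 (0.134, 0.138 and 0.121) and without TBI replicate 1 or 2 (0.149 and 0.130), and Tcf4 lost it without control replicate 1 (0.0659) or 3 (0.0853).

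In irradiated mice given DEIX, compared with irradiated mice given vehicle, Siglech fell by a further 1.22 (SE 0.24, limma adjusted p = 0.0203) and Tcf4 by 0.60 (SE 0.14, adjusted p = 0.0339). Ccr9 had a change of -0.59 (adjusted p = 0.114) and Runx2 of -0.32 (adjusted p = 0.268). Of the 8 genes 2 were called, both lower, where 3.41% of all tested genes were called lower and 8.10% in either direction. TBI+DEIX lay below every TBI library for Siglech, Tcf4 and Zbtb46, 3 of 8, against 12.7% of all tested genes. Without TBI+DEIX replicate 1 the changes were -1.06 for Siglech (adjusted p = 0.0164) and -0.49 for Tcf4 (adjusted p = 0.0295), and Zbtb46 was called too, at -0.69 (adjusted p = 0.0360). Both calls were lost when only the 6 libraries of these groups entered the fit (adjusted p = 0.148 for Siglech and 0.177 for Tcf4), in which limma called 0 of all tested genes (2015 at an unadjusted p under 0.05), when TBI replicate 3 was left out (0.105 and 0.147) and when TBI+DEIX replicate 3 was (0.0690 and 0.0779), and that of Tcf4 also without TBI replicate 2 (0.0990) and with no filter (0.0521).

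DEIX alone was compared with the same control libraries as TBI, so these comparisons are not independent. Tcf4 fell by 0.54 (SE 0.14, limma adjusted p = 0.0485), the single gene called of the 8, where 2.72% of all tested genes were called lower and 7.24% in either direction. Siglech, at 61.3% of the control mean, had a change of -0.68 (adjusted p = 0.115) and Ccr9, at 56.3%, of -0.70 (adjusted p = 0.0785). The DEIX libraries lay below every control library for Siglech, Ccr9, Tcf4, Zbtb46, Batf3 and Clec9a, against 17.2% of all tested genes. The Tcf4 call was lost in 9 of the 12 other fits, among them each that left out 1 control or DEIX library (adjusted p up to 0.164). In a fit of control and DEIX alone, 5 of the 8 genes were called lower, beside 7.78% of all tested genes lower and 18.7% in either direction in that fit, with adjusted p = 0.00649 for Siglech, 0.00661 for Ccr9, 0.0320 for Zbtb46 and 0.0194 for Clec9a beside Tcf4.

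The difference between TBI+DEIX and control covered all 4 plasmacytoid genes. Siglech fell by 2.70 (SE 0.24, limma adjusted p = 0.000111), Ccr9 by 1.52 (SE 0.22, adjusted p = 0.000786), Tcf4 by 1.35 (SE 0.14, adjusted p = 0.000229) and Runx2 by 0.81 (SE 0.18, adjusted p = 0.00646). With Clec9a, 5 of 8 genes were called lower, beside 13.1% of all tested genes lower and 30.0% in either direction. TBI+DEIX lay below every control library for 6 of 8, Clec9a and Batf3 being the others, against 21.1% of all tested genes. These 4 calls held in each of the 12 other fits, and without TBI+DEIX replicate 1 the changes were -2.54 for Siglech (adjusted p = 0.000150), -1.25 for Ccr9, -1.23 for Tcf4 and -0.62 for Runx2 (adjusted p up to 0.00776). Against DEIX alone, with TBI+DEIX libraries shared with the last comparison, TBI+DEIX was lower by a log2 change of -2.01 in Siglech (SE 0.24, adjusted p = 0.00379) and -0.81 in Tcf4 (SE 0.14, adjusted p = 0.0186), 2 of 8 genes beside 1.76% of all tested genes called lower and 2.57% in either direction. Siglech, Ccr9 and Tcf4, 3 of 8, did not overlap in this comparison, against 8.96% of all tested genes. Both calls were lost in a fit of these groups alone (adjusted p = 0.138 and 0.159), in which limma likewise called 0 of all tested genes (1035 at an unadjusted p under 0.05), so that this holds for each call of TBI+DEIX against TBI or DEIX given below, and Tcf4 without DEIX replicate 1, 2 or 3 (0.0524, 0.0645 and 0.0733). Without TBI+DEIX replicate 1 the changes were -1.86 for Siglech (adjusted p = 0.00385) and -0.70 for Tcf4 (adjusted p = 0.0179).

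**Figure D2:**
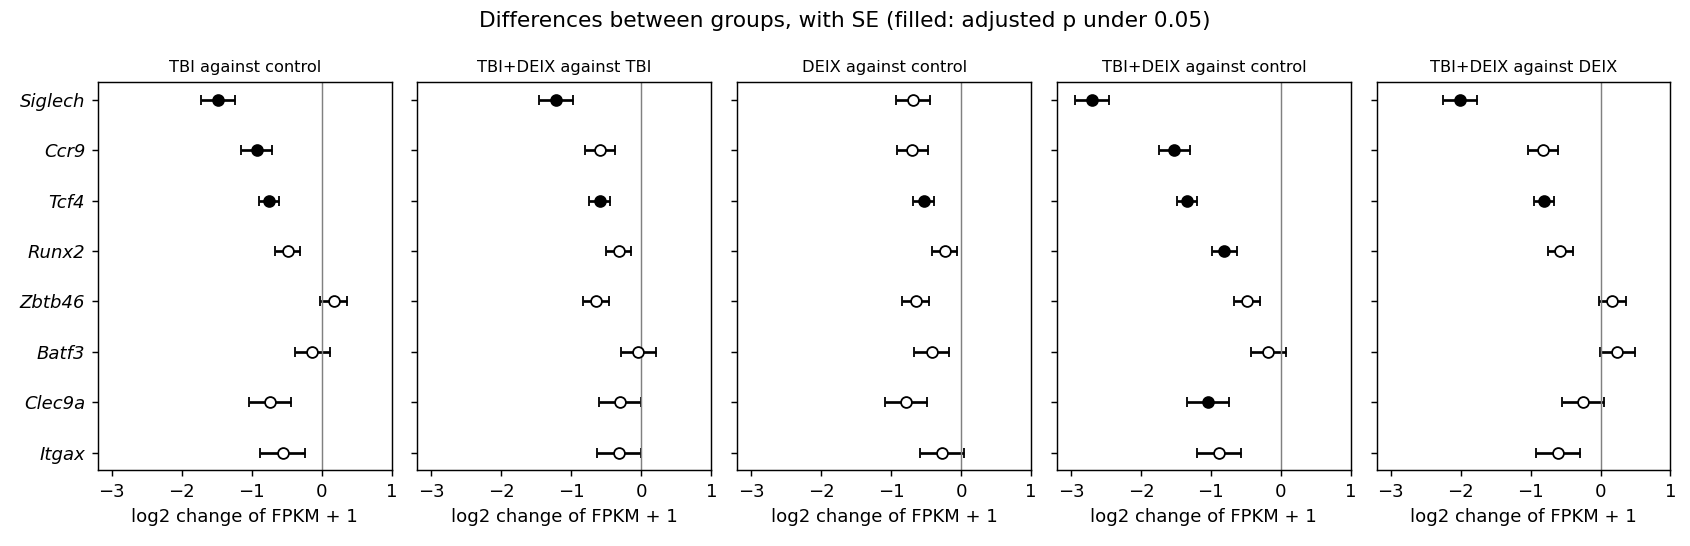
Log2(FPKM + 1) difference of the 8 tested genes in the 5 comparisons of groups, as points with bars of 1 SE from limma, filled where the adjusted p was under 0.05. The points of 6 genes, the 4 plasmacytoid ones, Clec9a and Itgax, lie left of 0 in each of the 5, those of Batf3 in 4 and those of Zbtb46 in 3, and the 3 comparisons with control share its libraries.

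Whether DEIX acted differently in irradiated and unirradiated marrow was asked by the interaction, the change with DEIX after TBI minus the change with DEIX in unirradiated mice. None of the 8 genes was called by limma, and none had an unadjusted p under 0.05, beside 22 of all tested genes called, 0.200%, and 825 at an unadjusted p under 0.05. The estimates ran from -0.54 (SE 0.35) for Siglech, with an adjusted p of 0.864, to 0.49 (SE 0.43) for Clec9a, with an adjusted p of 0.942. With SEs of 0.20 to 0.45 over the 8 genes, differences of this size were not detectable here.

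A list of 30 other genes known from plasmacytoid dendritic cells was read beside these, and all 30 were tested. After TBI 8 were called lower and none higher, beside 3.10% of all tested genes lower, and the median log2 change was -0.79 against 0.05 over all tested genes. In TBI+DEIX against TBI 3 were lower and none higher (median -0.36, all genes 0.00), beside 3.41% of all tested genes lower and 4.69% higher. In DEIX against control 5 were lower and 1 higher (median -0.42, all genes 0.02), beside 2.72% lower and 4.52% higher. The largest count was in TBI+DEIX against control, where 19 were lower and none higher (median -1.20, all genes 0.02), beside 13.1% lower and 16.9% higher. Against DEIX 6 were lower and none higher (median -0.54, all genes 0.02), beside 1.76% lower. Without TBI+DEIX replicate 1 these 3 comparisons with TBI+DEIX gave 4 lower and 3 higher against TBI, 18 lower and 1 higher against control, and 10 lower and 1 higher against DEIX. Over all 10994 genes that fit called 1054 lower and 1782 higher against TBI, 1685 lower and 2547 higher against control, and 396 lower and 531 higher against DEIX. These counts over all genes also apply to each list count without TBI+DEIX replicate 1 given below. The shares printed beside such counts are those of the main fit. With only the compared groups in the fit, none of the 30 was called against TBI or against DEIX.

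Spib, an ETS factor that acts beside TCF4 in plasmacytoid cells and is also a B cell gene, had the largest called change of the list in each comparison with control. It measured 89.3, 72.9 and 87.4 FPKM in control, 3.86, 12.7 and 17.9 in TBI, 0.655, 7.77 and 2.34 in TBI+DEIX, and 11.2, 12.5 and 16.1 in DEIX. Its log2 change was -2.96 in TBI (limma adjusted p = 0.0151), -2.57 in DEIX (adjusted p = 0.0245) and -4.52 in TBI+DEIX (adjusted p = 0.000410; -3.95 without TBI+DEIX replicate 1), each against control. Klk1, a kallikrein protease (-1.82, adjusted p = 0.00422), and Lag3, an inhibitory receptor for MHC class II (-1.56, adjusted p = 0.000142), were the next largest called after TBI.

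Irf8, the interferon regulatory factor needed for cDC1 and abundant in plasmacytoid cells, followed the order of Siglech. It measured 94.3, 94.2 and 96.6 FPKM in control, 69.8, 79.8 and 82.7 in DEIX, 58.5, 44.4 and 51.0 in TBI, and 15.8, 35.6 and 25.8 in TBI+DEIX, with no overlap between any groups. It fell by 1.03 in TBI+DEIX against TBI (SE 0.22, limma adjusted p = 0.0240), with Upb1 (-0.65, adjusted p = 0.0231) and Ptprs, a receptor phosphatase of plasmacytoid cells (-0.62, adjusted p = 0.0441), the other genes of the list called there. Without TBI+DEIX replicate 1 the changes were -0.73 for Irf8 (adjusted p = 0.00895), -0.56 for Upb1 (adjusted p = 0.0187) and -0.55 for Ptprs (adjusted p = 0.0434). The 1 gene of the list called higher was Tlr7, the endosomal receptor for single-stranded RNA, named after its value was seen. It was higher by 0.78 in DEIX against control (adjusted p = 0.0273), with 18.1, 23.9 and 19.5 FPKM in DEIX against 13.4, 11.7 and 9.49 in control, and macrophages and B cells transcribe it as well. The Tlr7 call was lost on the TPM scale (adjusted p = 0.123), as was that of Ptprs (adjusted p = 0.0640). Plac8, the most abundant gene of the list, has a mean level of 499 FPKM and Clec12a one of 178 FPKM, and both are shared with other myeloid or lymphoid cells.

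**Figure D3:**
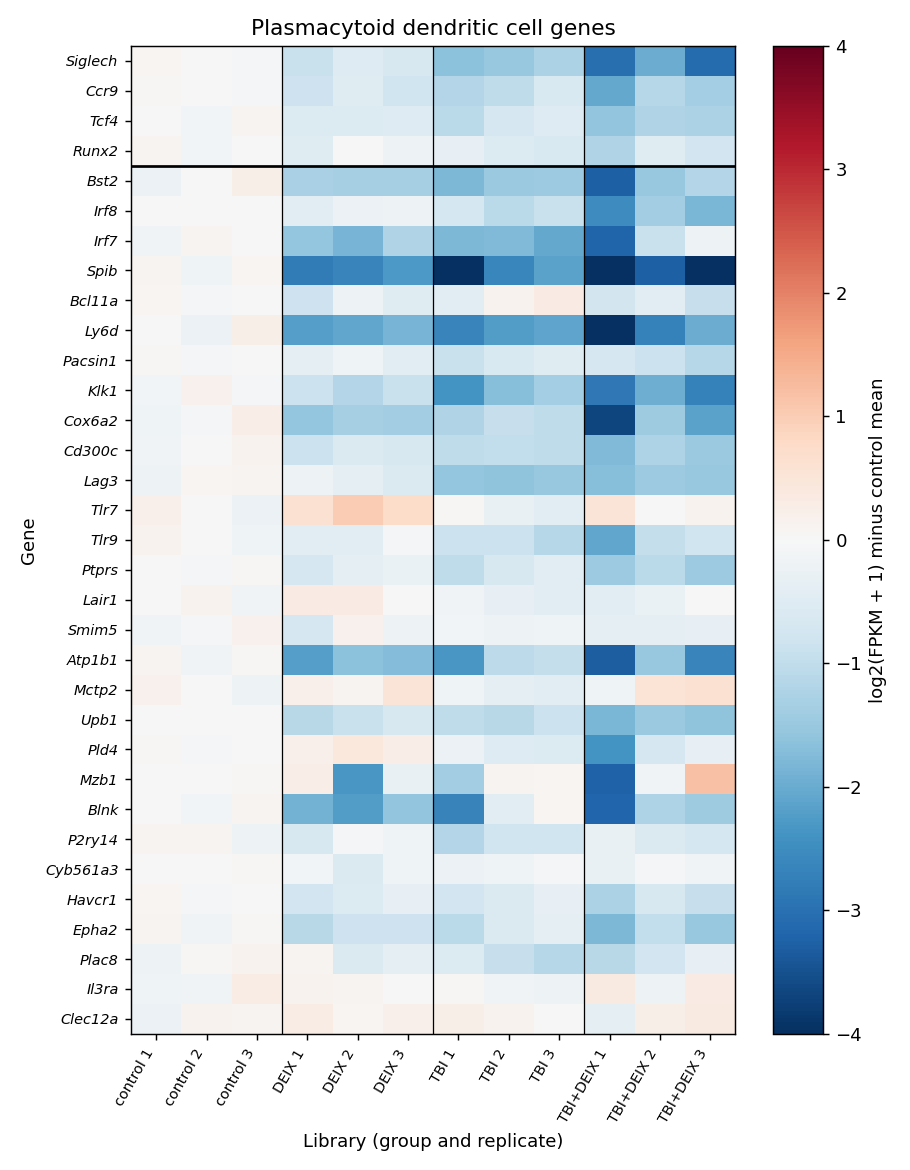
Log2(FPKM + 1) of the 4 plasmacytoid genes and 29 of the 30 other genes of the list in the 12 libraries, as the difference from the control mean of the gene, blue where lower and red where higher (colour bar, log2). Most rows are blue outside control, Spib the deepest, while Tlr7 is red in the 3 DEIX libraries.

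Markers of other marrow cells moved with the same groups, and their part in these results was not tested. All 12 B lineage markers were tested, and 3 of 12 were called lower in TBI, beside 3.10% of all tested genes. In TBI+DEIX against TBI limma called 0 of 12 (1 at an unadjusted p under 0.05), in DEIX against control 3 of 12 were lower, beside 2.72% of all tested genes, and in TBI+DEIX against control 10 of 12, beside 13.1%, or 8 of 12 without TBI+DEIX replicate 1. Their summed level was 577 to 705 FPKM in control, 34.7, 362 and 429 in TBI, 8.30, 231 and 101 in TBI+DEIX, and 78.9 to 119 in DEIX, and no marker was at 0. The order differs from that of Siglech: TBI replicate 1 had 34.7 FPKM of B lineage markers and 7.81 of Siglech, while TBI replicate 3 had 429 and 10.4. The DEIX libraries held less of the B lineage markers than TBI replicates 2 and 3, and more Siglech. Tcf4 and Spib, which B cells also transcribe, ranked the libraries as these sums did within TBI and within TBI+DEIX. In TBI replicates 1 to 3 Tcf4 was 9.25, 12.5 and 14.0 FPKM and Spib 3.86, 12.7 and 17.9. In TBI+DEIX they were 6.22, 8.30 and 7.95, and 0.655, 7.77 and 2.34. Siglech ranked the libraries so within TBI but not within TBI+DEIX. The part of B lineage cells in Tcf4 and Spib was not tested.

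The 16 monocyte and macrophage markers summed to 2443 to 2523 FPKM in control, 1588 to 2477 in TBI, 887 to 3120 in TBI+DEIX and 2671 to 3037 in DEIX. On average Ly6c2 was the largest part of these sums, with a mean of 1460 FPKM. Of them, 3 of 16 were called lower after TBI, beside 3.10% of all tested genes, and 2 of 16, C1qa and C1qb, higher in TBI+DEIX against TBI, beside 4.69%, or 5 of 16 without TBI+DEIX replicate 1. Shares here are those of the main fit. The fit without that library called more of all tested genes, as counted with the plasmacytoid list. In DEIX against control 4 of 16 were called lower, beside 2.72%, and 1 higher, beside 4.52%. Those lower were Mertk and the complement genes C1qa (-1.66), C1qb (-1.46) and C1qc (-1.63). Against DEIX, TBI+DEIX had 5 of 16 called higher and 1 lower, beside 0.810% and 1.76% of all tested genes, or 5 and 4 without TBI+DEIX replicate 1, and the 3 C1q genes were called in the interaction, beside 0.200% of all tested genes. Osteoblast and stroma markers were read beside Runx2, as those of a possible other source, whose part was not tested. They summed to 21.9 to 27.8 FPKM in control, 24.8 to 49.4 in TBI, 25.8 to 40.3 in TBI+DEIX and 10.4 to 13.5 in DEIX, reaching above control in both irradiated groups, and 6 of 10 were tested. Cxcl12 and Spp1 had the highest means, 11.1 and 9.60 FPKM. After TBI Col1a1 was called higher (0.77, limma adjusted p = 0.0315), 1 of 6, beside 3.99% of all tested genes called in either direction. In DEIX against control Cxcl12 was called lower (-1.51, adjusted p = 0.0258), 1 of 6, beside 2.72%. Against DEIX, Cxcl12 and Spp1 were called higher in TBI+DEIX (1.62 and 1.12), beside 0.810%, or 1.63 and 0.81 without TBI+DEIX replicate 1. Bglap, which encodes osteocalcin, was called lower in TBI+DEIX against TBI (-1.20, limma adjusted p = 0.0298), beside 3.41%, and against control (-0.92, adjusted p = 0.0275), beside 13.1%. Without TBI+DEIX replicate 1 it stood at -1.09 (adjusted p = 0.0274) and -0.81 (adjusted p = 0.0553, not called). Spp1 was called higher against control (1.04, adjusted p = 0.00695), beside 16.9%, or 0.72 without that library (adjusted p = 0.00305). Of the list 3 genes were at 0 in some library, among them Bglap in TBI+DEIX replicate 1. The 10 neutrophil markers summed to 19008 to 27208 FPKM in control, 19949 to 25700 in TBI, 14625 to 40224 in TBI+DEIX and 21867 to 28510 in DEIX, with none at 0. Limma called 3 of the 10 higher and 1 of them lower when TBI+DEIX was set against control, beside 16.9% and 13.1% of all tested genes. Without TBI+DEIX replicate 1 these counts were 6 and 2, in the fit that called more of all tested genes.

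**Figure D4:**
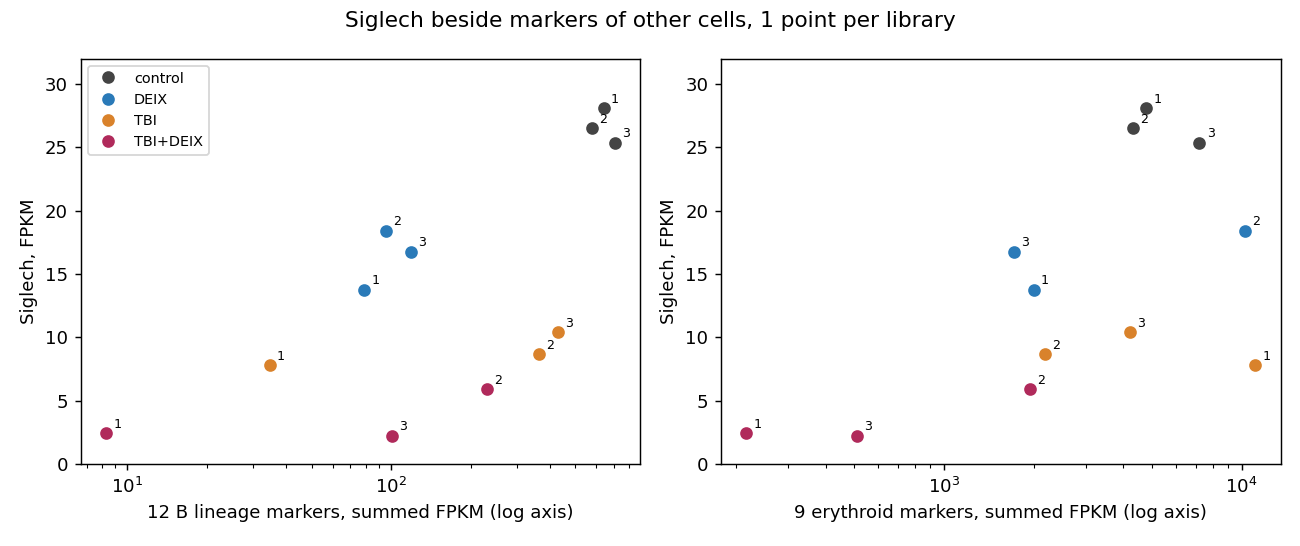
Siglech in FPKM (y axes) against the summed FPKM of 12 B lineage markers (left) and 9 erythroid markers (right, x axes on a log scale), 1 numbered point per library coloured by group. The 3 DEIX libraries lie above the 3 TBI libraries for Siglech, although TBI replicates 2 and 3 have the higher B lineage sums.

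The interferon response genes did not follow Siglech within TBI+DEIX. The 14 listed genes summed to 1156 to 1403 FPKM in control, 236 to 327 in TBI, 220 to 346 in DEIX and 73.8, 486 and 802 in TBI+DEIX replicates 1 to 3. Irf7 and Bst2 are on both this list and the plasmacytoid one. Replicate 3 of TBI+DEIX thus had the most interferon response RNA outside control and the least Siglech of the 12, 2.26 FPKM. All 14 were lower in TBI than in control, with a median log2 change of -1.83, but limma called 0 of 14 (11 at an unadjusted p under 0.05), and in DEIX against control 2 of 14 were called lower, beside 2.72% of all tested genes. In TBI+DEIX against control 6 of 14 were called lower, beside 13.1% of all tested genes, among them Ifi27l2a, at -3.66 (adjusted p = 0.0431). Without TBI+DEIX replicate 1 the count was again 6, with Ifi27l2a at -1.69 (adjusted p = 0.00502). In TBI+DEIX against TBI 0 of 14 were called by limma, and none had an unadjusted p under 0.05, whereas without that library 10 of 14 were called higher. The fit without it also called more of all tested genes higher, as counted with the plasmacytoid list.

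The conventional genes had mean levels over the 12 libraries of 0.261 (Xcr1) to 5.03 FPKM (Itgax), against 3.81 (Ccr9) to 13.9 (Siglech) for the plasmacytoid genes. Zbtb46, a zinc finger repressor that separates conventional dendritic cells from monocytes, and which erythroid progenitors and endothelium also transcribe, lies on chromosome 2 (181387762-181459426, minus strand). It measured 2.48, 2.36 and 2.23 FPKM in control, 2.48, 2.29 and 3.69 in TBI, 1.54, 1.67 and 1.03 in TBI+DEIX, and 0.693, 1.73 and 1.10 in DEIX. Both groups given DEIX lay below both groups that were not, with no overlap. The log2 change was -0.65 (SE 0.19) in TBI+DEIX against TBI (limma adjusted p = 0.0582) and -0.65 (SE 0.19) in DEIX against control (adjusted p = 0.0623), and neither passed the threshold. After TBI it was 0.17 (SE 0.19, adjusted p = 0.689).

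Erythroid markers moved with Zbtb46 in part, and their share in it was not tested. The 9 markers summed to 4318 to 7214 FPKM in control, 2185 to 11093 in TBI, 217 to 1938 in TBI+DEIX and 1716 to 10279 in DEIX, with none at 0. In TBI+DEIX against TBI 3 of 9 were called lower, beside 3.41% of all tested genes (4 of 9 without TBI+DEIX replicate 1). There 9 of 9 lay below TBI with no overlap, beside 12.7%, with a median log2 change of -2.64, and 9 of 9 had an unadjusted limma p under 0.05. In DEIX against control limma called 0 of 9 (1 at an unadjusted p under 0.05). Within DEIX, replicate 2 was highest both for the erythroid sum, 10279, and for Zbtb46, 1.73. The library with the most Zbtb46, TBI replicate 3, had a lower erythroid sum, 4211, than TBI replicate 1, 11093, which held 2.48 FPKM of Zbtb46. The erythroid markers were lowest against control in TBI+DEIX, where 6 of 9 were called lower (median -2.20; 3 of 9 called without TBI+DEIX replicate 1), beside 13.1% of all tested genes, and 9 of 9 did not overlap, beside 21.1%. Limma called 0 of 9 in TBI+DEIX against DEIX (6 at an unadjusted p under 0.05). The 8 endothelial markers, whose part in Zbtb46 was likewise not tested, summed to 33.6 to 35.2 FPKM in control, 22.5 to 38.9 in TBI, 18.9 to 25.3 in TBI+DEIX and 20.9 to 31.0 in DEIX, with none at 0. Both groups given DEIX lay below control. Of 4 tested, 1 was called lower after TBI, beside 3.10% of all tested genes, 3 in TBI+DEIX against control with or without TBI+DEIX replicate 1, beside 13.1%, and 0 by limma in TBI+DEIX against TBI and in DEIX against control (1 at an unadjusted p under 0.05 in each).

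Itgax encodes CD11c, the integrin used to recognise conventional dendritic cells, which monocytes, macrophages and NK cells carry as well. It lies on chromosome 7 (128129547-128150657, plus strand). Its values were 7.14, 6.84 and 6.09 FPKM in control, 4.22, 4.38 and 4.02 in TBI, 1.80, 5.12 and 3.21 in TBI+DEIX, and 3.20, 9.57 and 4.77 in DEIX. TBI and TBI+DEIX lay below control, and DEIX spanned it. The log2 change was -0.56 (SE 0.32, limma adjusted p = 0.387) after TBI and -0.88 (SE 0.32, adjusted p = 0.0565) in TBI+DEIX against control. In DEIX replicate 2, the highest library for Itgax, the 16 monocyte and macrophage markers summed to 2692 FPKM, below DEIX replicate 1 (3037) and TBI+DEIX replicate 3 (3120), although 2 of the 16, Csf1r at 142 FPKM and Cx3cr1 at 23.7, peaked there, and the part of these markers was not tested. Ly6c2, with a mean of 1460 FPKM, leads that sum, which therefore says little of the other markers. The 9 T and NK cell markers in the table moved with the groups as well, and their part was not tested. They summed to 168 to 202 FPKM in control, 100 to 141 in TBI, 57.4 to 147 in TBI+DEIX and 134 to 193 in DEIX, with none at 0. On average Nkg7 was the largest part of these sums, with a mean of 115 FPKM. The sums of TBI and TBI+DEIX lay below control and that of DEIX overlapped it. In DEIX against control all 9 markers were nevertheless lower, 7 of 9 with no overlap (beside 17.2% of all tested genes), and 1 was called, beside 2.72%. After TBI all 9 were lower, 8 of 9 with no overlap with control (beside 16.3% of all tested genes) and 3 of 9 called, beside 3.10%. Against control, 4 of 9 were called lower in TBI+DEIX, with or without TBI+DEIX replicate 1, beside 13.1%. Without that library the change of Itgax there was -0.60 (adjusted p = 0.142). Itgax was called in that comparison on the TPM scale (adjusted p = 0.0358), with array weights (0.0134), with a replicate block (0.0322) and without TBI+DEIX replicate 2 (0.0207), and after TBI with only the compared groups (0.00659) or array weights (0.00878).

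The cDC1 genes Batf3, Clec9a and Xcr1 were near the limit of these libraries. Batf3, the AP-1 family factor needed for cDC1, lies on chromosome 1 (191097847-191108945, plus strand) and measured 0.911, 1.28 and 1.25 FPKM in control, 0.660, 1.17 and 1.05 in TBI, 0.194, 1.75 and 1.06 in TBI+DEIX, and 0.430, 0.800 and 0.600 in DEIX. Its DEIX libraries lay below control, and its TBI+DEIX libraries held both the lowest and the highest of the 12. No change was called by limma, with log2 changes from -0.42 (DEIX against control, adjusted p = 0.333) to 0.24 (TBI+DEIX against DEIX, adjusted p = 0.707).

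Clec9a, the receptor for actin exposed by dead cells, lies on chromosome 6 (129408862-129424763, plus strand). It measured 4.21, 3.76 and 2.69 FPKM in control, 1.52, 1.86 and 1.74 in TBI, 0.351, 2.76 and 1.05 in TBI+DEIX, and 1.27, 1.41 and 2.23 in DEIX. TBI and DEIX lay below control, and TBI+DEIX replicate 2 just reached into its range. Clec9a fell by 1.05 in TBI+DEIX against control (SE 0.30, limma adjusted p = 0.0235). The changes of -0.74 after TBI (adjusted p = 0.225) and -0.79 in DEIX against control (adjusted p = 0.134) were not called. The call was lost in a fit of the compared groups alone (adjusted p = 0.0924), without control replicate 1 (0.0801) or 2 (0.0745), or when TBI+DEIX replicate 3 was left out (0.0600). The change was -0.70 with TBI+DEIX replicate 1 left out (adjusted p = 0.0442).

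The gene overlaps Clec1b on the same strand, which encodes a lectin of platelets and megakaryocytes, so reads could be split between them. Clec1b measured 4.30, 3.49 and 3.70 FPKM in control, 1.59, 1.80 and 1.90 in TBI, 1.35, 3.21 and 1.92 in TBI+DEIX, and 2.36, 1.44 and 2.67 in DEIX. The values of these genes run close to each other in most libraries, and how the authors' counting assigned shared reads is not given in the sources used here. The level of Clec9a is therefore uncertain.

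Xcr1, the receptor for the chemokine XCL1 and the marker most specific to cDC1, lies on chromosome 9 (123852315-123862029, minus strand), 68.0 kb from Ccr9 with 2 protein-coding genes between them. It measured 0.131, 0.0746 and 0.0492 FPKM in control, 0.162, 0.427 and 0.268 in TBI, 0.0913, 1.45 and 0.371 in TBI+DEIX, and 0.0198, 0.0381 and 0.0527 in DEIX. All TBI libraries were above all control libraries, as for 22.0% of all tested genes, and all TBI+DEIX libraries above all DEIX libraries, as for 8.72%. TBI+DEIX replicate 2 was above every other library. In a fit of 17304 genes with no filter on low values, limma adjusted p was 0.688 for TBI against control, 0.158 for TBI+DEIX against control and 0.274 for TBI+DEIX against DEIX. Ccr9, its neighbour, was lower in the irradiated groups, where Xcr1 was not. At these levels 1 or a few reads can set a value, and the difference was not detectable as a group difference.

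Over Batf3, Clec9a, Xcr1 and the 17 other genes of a cDC1 list, 20 in all, TBI+DEIX replicate 2 was the highest library for 8. Of the other 12 genes, 3 peaked in TBI+DEIX replicate 1 (Id2, Itgae and Fzd1), 3 in TBI replicate 1 (Snx22, Plpp1 and Cd24a), 2 in control replicate 1 (Clec9a and Gcsam), 2 in DEIX replicate 1 (Naaa and Ppt1), 1 in DEIX replicate 2 (Btla) and 1 in TBI+DEIX replicate 3 (Cadm1). The 8 were Xcr1, Batf3, Tlr3, the receptor for double-stranded RNA, at 2.38 FPKM, Tlr11, a receptor for profilin, at 1.49, Ifi205, at 3.81, Cd8a, at 2.15, Wdfy4, needed for cross-presentation, at 65.0, and Sept3, at 1.17. The library was singled out after the values were seen, so no test was made. TBI+DEIX replicate 1 had 0.676 FPKM of Tlr3, 0.0954 of Tlr11 and 0.880 of Ifi205, below replicates 2 and 3 of its group for all 3 genes.

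**Figure D5:**
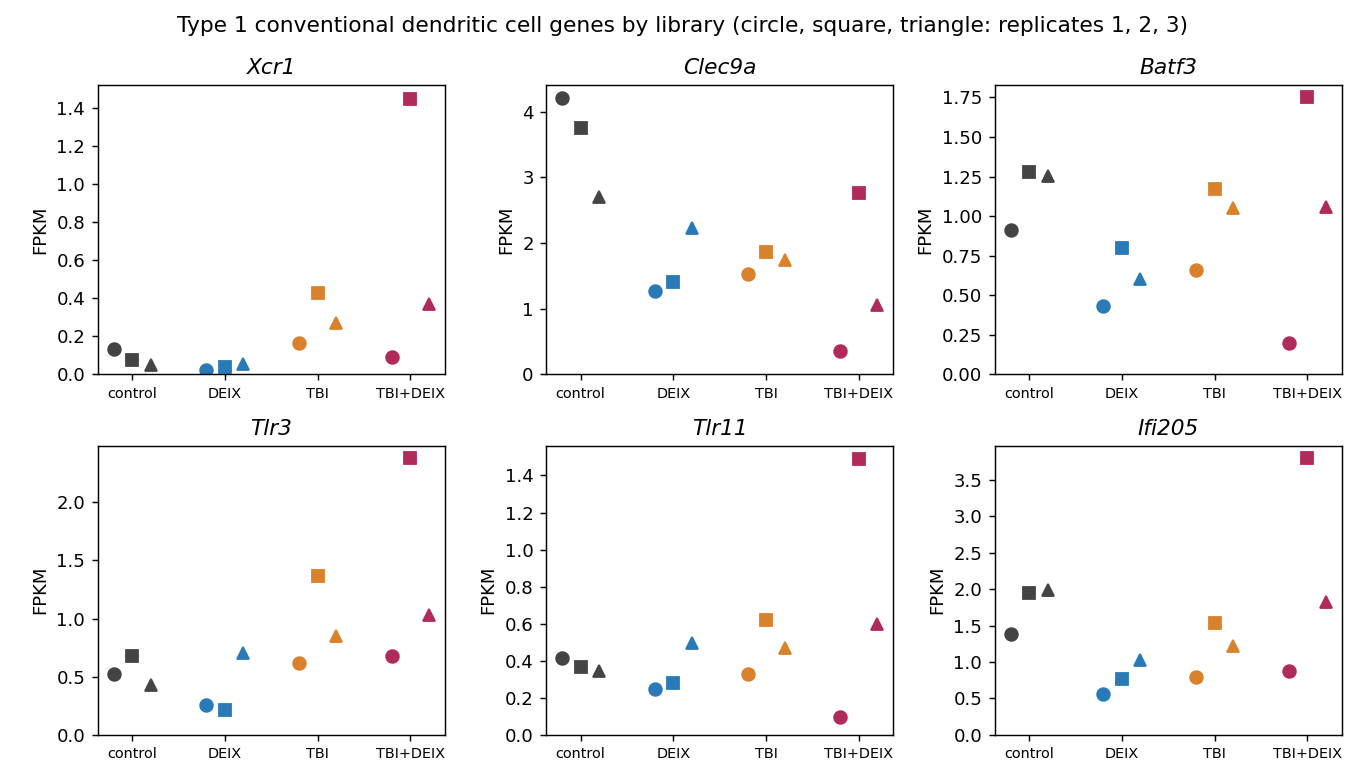
FPKM (y axis, its own scale for each gene) of Xcr1, Clec9a, Batf3 and of Tlr3, Tlr11 and Ifi205, the latter 3 picked after their values were seen, in the 12 libraries by group, with a circle, square or triangle for replicate 1, 2 or 3. TBI+DEIX replicate 2 is the highest point for Xcr1 at 1.45 and for Batf3 at 1.75, and TBI+DEIX replicate 1 the lowest for Batf3 and Clec9a.

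Of the 17 other cDC1 genes 12 were tested. Of these 1 was called lower after TBI, beside 3.99% of all tested genes called in either direction, 1 lower in TBI+DEIX against TBI, beside 8.10%, 1 higher in DEIX against control, beside 7.24%, 2 lower and 1 higher in TBI+DEIX against control, beside 30.0%, and 1 lower in TBI+DEIX against DEIX, beside 2.57%. With TBI+DEIX replicate 1 left out, its 3 comparisons gave 4 higher and 1 lower against TBI, 4 and 2 against control, and 3 and 1 against DEIX. More of all tested genes were called in that fit too, as counted with the plasmacytoid list. Plpp1, a lipid phosphate phosphatase, was the gene called lower in TBI+DEIX against TBI (-1.41, limma adjusted p = 0.0362), and it was also called against control (-1.34, adjusted p = 0.0158), or at -1.45 and -1.38 without TBI+DEIX replicate 1. Within TBI, TBI+DEIX and DEIX, the library with the most Plpp1 was also that with the highest erythroid sum, which was not so within control. The part of erythroid cells in Plpp1 was not tested. Btla, an inhibitory receptor that B cells also carry, was lower after TBI (-1.23, limma adjusted p = 0.00316), in TBI+DEIX against control (-1.53, adjusted p = 0.000306) and in TBI+DEIX against DEIX (-1.60, adjusted p = 0.00235), or -1.48 and -1.56 without TBI+DEIX replicate 1. Id2, the inhibitor of E proteins that favours conventional over plasmacytoid fate and that many myeloid cells make, was higher in TBI+DEIX against control (1.26, adjusted p = 0.0131). TBI+DEIX replicate 1 was its highest library, at 348 FPKM, and without it the change was 0.85 (adjusted p = 0.0136). The median of the tested genes was 0.08 after TBI and 0.13 in TBI+DEIX against TBI, near 0.05 and 0.00 over all genes. Naaa, an amidase, rose in DEIX against control (0.92, adjusted p = 0.0442).

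Among 13 genes of cDC2, the other conventional branch, 11 were tested. After TBI 2 of 11 were called lower, beside 3.10% of all tested genes. In DEIX against control 1 was lower and 2 were higher, beside 2.72% and 4.52%, the latter being Notch2 (0.63, adjusted p = 0.0457; 0.0771 on the TPM scale) and Sirpa, a receptor for CD47 that macrophages and neutrophils also carry (0.53, adjusted p = 0.0484). The counts were 4 of 11 lower and 2 higher in TBI+DEIX against control, beside 13.1% and 16.9% of all tested genes, or 3 and 3 without TBI+DEIX replicate 1. Cd209d, a C-type lectin, was called in TBI (-2.06, limma adjusted p = 0.000149), in DEIX (-1.23, adjusted p = 0.00466) and in TBI+DEIX (-2.29, adjusted p = 4.52e-05; -2.24 without TBI+DEIX replicate 1), each against control. Klf4, a factor of cDC2 and monocytes, was lower in TBI+DEIX than in TBI (-0.89, adjusted p = 0.0434) and than in DEIX (-1.76, adjusted p = 0.00587), while Relb, an NF-kB subunit, was higher in TBI+DEIX than in TBI (0.45, adjusted p = 0.0360), a call lost on the TPM scale (adjusted p = 0.188). Klf4 without TBI+DEIX replicate 1 stood at -0.61 against TBI (adjusted p = 0.0358) and -1.48 against DEIX (adjusted p = 0.00250), and Relb at 0.50 (adjusted p = 0.0153). With only the compared groups the adjusted p was 0.202 and 0.110 for Klf4 and 0.157 for Relb. After TBI Relb was called lower (-0.46, adjusted p = 0.0469), a call lost on the TPM scale too (adjusted p = 0.178).

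The 14 genes shared by conventional dendritic cells or turned on as they mature gave 9 tested. After TBI 4 of 9 were called lower, with a median of -0.99, beside 3.10% of all tested genes called lower. In DEIX against control 4 of 9 were called lower as well, with a median of -0.61, beside 2.72%. Ccr7, which guides mature dendritic cells and lymphocytes to lymph nodes, measured 6.72, 5.37 and 7.07 FPKM in control, 0.465, 0.914 and 1.39 in TBI, 0.797, 0.960 and 0.640 in TBI+DEIX, and 1.29, 1.88 and 1.82 in DEIX. It fell by 1.96 in TBI (adjusted p = 0.000231), 1.47 in DEIX (adjusted p = 0.00290) and 2.03 in TBI+DEIX (adjusted p = 9.59e-05) against control in limma, the last being -2.03 also without TBI+DEIX replicate 1. Of the same 9 genes 6 were called lower and 1 higher in TBI+DEIX against control, beside 13.1% and 16.9% of all tested genes, or 6 and 2 without TBI+DEIX replicate 1. The gene called higher was Cd80, a costimulatory molecule, named after its value was seen, at 0.61 (adjusted p = 0.0158), or 0.79 without that library (adjusted p = 0.000874), and it was not called with only the compared groups. Cd40 and Cd83, surface molecules of activated dendritic cells and B cells, were the other largest changes after TBI, at -1.37 (adjusted p = 0.00456) and -1.27 (adjusted p = 0.00740). B lineage markers were lower in the same groups, as given above.

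Of 25 genes that steer dendritic cell development, all tested, 3 were called lower and none higher after TBI, beside 3.10% of all tested genes lower. This list shares Irf8, Spib, Bcl11a, Id2, Irf4, Klf4, Relb and Flt3 with the lists above, so its counts are not separate from theirs. Among its genes called lower, Spib and Relb after TBI, and Klf4, Irf8 and Flt3 against DEIX, were counted there already. There were 5 higher and 3 lower in TBI+DEIX against TBI, beside 4.69% and 3.41% of all tested genes. Against control 8 were higher and 11 lower, beside 16.9% and 13.1%. For DEIX alone 4 were higher and 3 lower than control, beside 4.52% and 2.72%, and in TBI+DEIX against DEIX none was higher and 4 were lower, beside 0.810% and 1.76%. With TBI+DEIX replicate 1 left out, TBI+DEIX against TBI gave 10 higher and 6 lower, and against control 10 and 10, while more of all tested genes were called too, as counted with the plasmacytoid list. With only the compared groups none of the 25 was called against TBI. Csf2rb and Csf2rb2, the beta chains of the receptors for GM-CSF and related cytokines, rose in TBI+DEIX against TBI by 1.19 (limma adjusted p = 0.0177) and 1.27 (adjusted p = 0.0199), or by 1.04 (adjusted p = 0.0114) and 1.09 (adjusted p = 0.0152) without TBI+DEIX replicate 1. Both were also called higher in DEIX against control, at 1.07 (adjusted p = 0.0190) and 1.21 (adjusted p = 0.0196). Csf2rb measured 61.0 to 70.8 FPKM in control, 66.4 to 113 in TBI, 162 to 238 in TBI+DEIX and 108 to 171 in DEIX, and neutrophils and monocytes transcribe it too. Flt3, the receptor whose ligand drives dendritic cell output and which early progenitors carry, measured 8.45, 7.46 and 7.23 FPKM in control, 4.13, 3.32 and 3.49 in TBI, 4.39, 2.53 and 1.46 in TBI+DEIX, and 6.52, 11.9 and 8.34 in DEIX. It was lower in TBI+DEIX than in DEIX, with a log2 change of -1.42 (adjusted p = 0.0191), or -1.71 without TBI+DEIX replicate 1 (adjusted p = 0.00248). The irradiated groups overlapped each other and lay below the unirradiated ones.

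Pearson's r of log2(FPKM + 1) over the 12 libraries is given as a description, since they share groups and depth. It was 0.83 (Runx2 and Tcf4) to 0.96 (Ccr9 and Tcf4) over the 6 pairs of plasmacytoid genes, 0.33 to 0.73 over the 6 pairs of tested conventional genes, and 0.22 (Batf3 and Siglech) to 0.91 (Itgax and Runx2) over the 16 pairs of 1 gene of each kind. Itgax and Clec9a thus ran with plasmacytoid genes too, with 0.84 between Ccr9 and Clec9a and 0.78 between Itgax and Siglech. The genes most like Siglech among all tested included Kmo (0.984) and Ptprs (0.973), both of which were already in the dendritic cell lists. Those most like Ccr9 were Pdzd4, Tmem221 and Arl5c (0.968 to 0.969), and those most like Tcf4 were Ccdc69, Plekho1 and Ivd (0.980 to 0.984). For Runx2 they were Prkab2, Abhd15 and Tdrkh (0.954 to 0.969).

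Among the conventional genes, Zbtb46 ran with Mllt3, Gfi1b and Sphk1 (0.965 to 0.970), of which Gfi1b is a factor of erythroid and megakaryocyte cells. Batf3 ran with Ckb (0.947), Abcg3 (0.918) and H2-Ab1 (0.901), the last an MHC class II chain of antigen-presenting cells. Clec9a ran with Chp2, Sept6 and Sesn3 (0.941 to 0.958), and Itgax with Fcgrt, Cd36 and Prkab2 (0.925 to 0.939), of which Prkab2 was also nearest to Runx2. All values are over 12 libraries.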

How the data were processed

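RNA sequencing libraries of mouse whole bone marrow were made with a directional MGI kit, per the labels' protocols. Per the submitters' processing notes, STAR 2.6, Cufflinks 2.2.1 and mm10 were named, without their roles. The authors deposited 1 table of FPKM values for 21853 genes in 12 libraries. Since FPKM is not a count, count models do not apply. All identifiers matched GENCODE vM21 on GRCm38, from which symbols and 1-based coordinates were taken; 24 symbols were shared by more than 1 identifier.

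Values were tested as log2(FPKM + 1), which understates the change of low genes, with limma 3.58.1 in R 4.3.3 (eBayes with trend) in 1 model of 4 group means over 12 libraries and 6 contrasts. Genes at 1 FPKM or more in at least 3 libraries were tested, 10994 in all, and calls were made at an adjusted p (Benjamini-Hochberg over all of them) under 0.05. The fit was tested on simulated data. The 9 genes, the lists and the tests were chosen with earlier results of these data known. Named genes were all 9, the 3 most abundant tested genes and up to 3 called genes of largest change per list and contrast, and the 3 genes of most similar pattern. Some genes that this rule names are not reported here. Other genes are said to be named after their values were seen or are given for an overlap or another cell type. Relative depth came from the steps between low values in the FPKM table and was poorly fixed for DEIX replicate 1. Alternatives were a pseudocount of 0.1, no filter, a TPM scale without S100a8, S100a9 and Ngp, only the compared groups, array weights (gene by gene method, because the default did not converge), a replicate block, and leaving out each library.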

Additional observations from a re-analysis of the deposited data

How the results depend on the processing

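Over 616 refits of single genes, 527 kept direction and side of the threshold, 35 lost a call, 24 gained one and 30 changed sign. Counts of genes called moved as follows. For TBI against control, 439 became 675 with no filter, 1417 with only the compared groups and 4218 with array weights, and the dendritic cell genes called rose from 3 to 6 in the latter 2. For TBI+DEIX against TBI, 891 became 492 on the TPM scale, 0 with only the compared groups and 4488 with array weights, and 2 dendritic cell genes became 1 with no filter and 0 with only the compared groups. For DEIX against control, 796 became 419 on the TPM scale, 2057 with only the compared groups and 4508 with array weights, and 1 dendritic cell gene became 0 with a pseudocount of 0.1, no filter or the TPM scale, 5 with only the compared groups and 6 with array weights. For TBI+DEIX against control, 3299 became 2181 with only the compared groups and 6187 with array weights. For TBI+DEIX against DEIX, 283 became 0 with only the compared groups, with 0 dendritic cell genes in place of 2, and 948 with array weights. For the interaction, 22 became 11 with a pseudocount of 0.1, 37 with no filter and 532 with array weights. The causes were not tested.

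Signs that changed were small estimates that were not called. With array weights they were 0.19 (TBI+DEIX against TBI) and 0.10 (against control) for Batf3, 0.036 (TBI+DEIX against TBI) and 0.090 (against DEIX) for Clec9a, and in the interaction 0.12 for Runx2, 0.17 for Zbtb46 and 0.40 for Itgax. In the interaction Ccr9 gave -0.032 with a pseudocount of 0.1 and -0.012 on the TPM scale, and Zbtb46 gave 0.086 with a pseudocount of 0.1.

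Leaving out 1 library at a time gave 153 to 259 genes called for TBI against control (1 to 3 dendritic cell genes), 5 to 2836 for TBI+DEIX against TBI (0 to 3), 146 to 938 for DEIX against control (0 to 1), 2004 to 4232 for TBI+DEIX against control, 50 to 927 for TBI+DEIX against DEIX (1 to 3) and 4 to 331 for the interaction. The highest of TBI+DEIX against TBI, against control and against DEIX and of the interaction came without TBI+DEIX replicate 1. Estimates that changed sign ranged, for Batf3, from -0.31 to 0.29 (TBI+DEIX against TBI), -0.45 to 0.15 (against control) and -0.032 to 0.57 (against DEIX). For Clec9a they ranged from -0.70 to 0.040 (TBI+DEIX against TBI) and -0.64 to 0.094 (against DEIX), and for Itgax from -0.64 to 0.024 (DEIX against control). In the interaction they ranged from -0.082 to 0.38 for Ccr9, -0.22 to 0.057 for Tcf4, -0.25 to 0.10 for Runx2, -0.17 to 0.18 for Zbtb46 and -0.35 to 0.32 for Itgax.

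Deviations of same-numbered libraries from their group means had r from -0.45 to 0.24 over 18 pairs, 3 of them over 0.1. With 3 libraries a group this cannot show whether the numbers pair the samples, and no pairing is stated in the labels. A replicate block gave 474 genes called for TBI+DEIX against TBI and 180 for TBI+DEIX against DEIX, and added Itgax in TBI+DEIX against control (adjusted p = 0.0322).

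The TPM scale moved the median of all genes by -0.10 in TBI+DEIX against TBI. The share of calls that were higher went from 57.9% to 29.5% there, from 62.4% to 48.0% in DEIX against control, from 56.2% to 38.6% in TBI+DEIX against control, from 31.4% to 16.6% in TBI+DEIX against DEIX and from 95.5% to 80.8% in the interaction. The shallower TBI+DEIX libraries limit what can be said of Batf3, Xcr1 and other genes near 1 FPKM. Of 107 calls of genes in the dendritic cell lists, in checks added after the data were seen, 93 held on the TPM scale, 93 with a pseudocount of 0.1, 93 with a replicate block, 88 with no filter, 77 with only the compared groups and 107 with array weights. With 1 library left out, 54 of 83 held without each of the 3 control libraries in turn, 15 to 19 of 28 without a TBI library, 52 to 67 of 71 without a TBI+DEIX library and 12 to 23 of 32 without a DEIX library (12 without DEIX replicate 3). None changed sign.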
